A study of Mus musculus with 9 samples.

Results

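A set of 10 genes that mark the endothelium of the liver sinusoid was followed here in mouse liver after acetaminophen (APAP), a common analgesic whose metabolite is toxic to hepatocytes. The genes, chosen by name as scavenger and identity markers of these cells, were Lyve1, Stab1, Stab2, Mrc1, Oit3, Clec4g, Fcgr2b, Kdr, Gata4 and Dnase1l3. All 10 were found among the 28956 rows of the raw count table, of which 24 repeat a gene symbol and were kept as separate genes. All 10 passed the filter on low counts, which left 17582 genes. RNA of a piece of whole liver was measured by poly(A) RNA sequencing in 9 libraries, 3 from each of 3 groups. All groups were C57BL6J mice aged 8 weeks that had been given APAP at 300 mg/kg intraperitoneally, and the series title names 24 h as the time point. The APAP_MSC group also received 500000 MSC cells intravenously 90 min after APAP. The APAP_HDF group received the same number of HDF cells by the same route and at the same time. The APAP group received no cells. MSC usually means mesenchymal stromal cell and HDF human dermal fibroblast, but the labels spell out neither. No liver without APAP was analysed here, so every difference is between livers exposed to APAP.

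The sinusoid is the capillary of the liver, and its endothelium is fenestrated and lacks a continuous basement membrane. Its cells clear waste macromolecules from portal and arterial blood by receptor-mediated endocytosis, through stabilins, the mannose receptor, lectins and an Fc receptor. GATA4 is a transcription factor known in mouse to hold the sinusoidal programme, and VEGF signalling through Kdr maintains the fenestrated state. Several of these genes have other sources in liver: Mrc1, Fcgr2b and Dnase1l3 are also made by macrophages, Lyve1 by lymphatic endothelium and some macrophages, and Gata4 by other liver cells.

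Depth, rounded to 5 digits, was 53267000 to 63176000 counts per library, and the 10 genes were covered by 180 to 4238 counts each in every library. A count of 0 would have allowed 0.0453 to 0.0567 CPM (counts scaled to a common total, with TMM library sizes), for counting error only. Hepatocytes are given as the cell type in the labels, although the extracted material was whole liver. The hepatocyte marker Alb, for serum albumin, stood at 72632 ± 3536 CPM in APAP_MSC, 75868 ± 12174 CPM in APAP_HDF and 73850 ± 10322 CPM in APAP (SD, n = 3 each). Markers of all blood vessels were detected too, with Pecam1 at 12.0 ± 1.24 CPM in APAP_MSC, 19.7 ± 5.51 CPM in APAP_HDF and 20.8 ± 4.50 CPM in APAP, so the values are read as whole liver. In such bulk samples, fewer cells of a type and less RNA per cell cannot be told apart. The labels give n = 3, and each library's description holds a number of its own, but they do not say whether that number marks an animal. P-values therefore measure the spread between these libraries, which may be technical.

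Relative to APAP livers, 4 of the 10 genes fell in APAP_MSC livers (Lyve1, Stab1, Mrc1 and Oit3) and 0 rose, by edgeR's quasi-likelihood test at an adjusted p under 0.05. Over all genes tested, 3.54% fell and 2.83% rose. Relative to APAP_HDF livers, 4 of the 10 also fell in APAP_MSC livers (Lyve1, Mrc1, Oit3 and Fcgr2b), and 0 rose, against 3.99% and 4.9% of all genes tested. Between APAP_HDF and APAP livers, 0 of 10 passed, as did 0% of all genes. In the test across the 3 groups together, Lyve1, Stab1, Mrc1 and Oit3 passed, against 7% of all genes. Lyve1 had the lowest log2 fold change of the 10 in both comparisons of APAP_MSC. Stab2, Clec4g, Kdr, Gata4 and Dnase1l3 passed in none of the 3 comparisons.

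**Figure D1:**
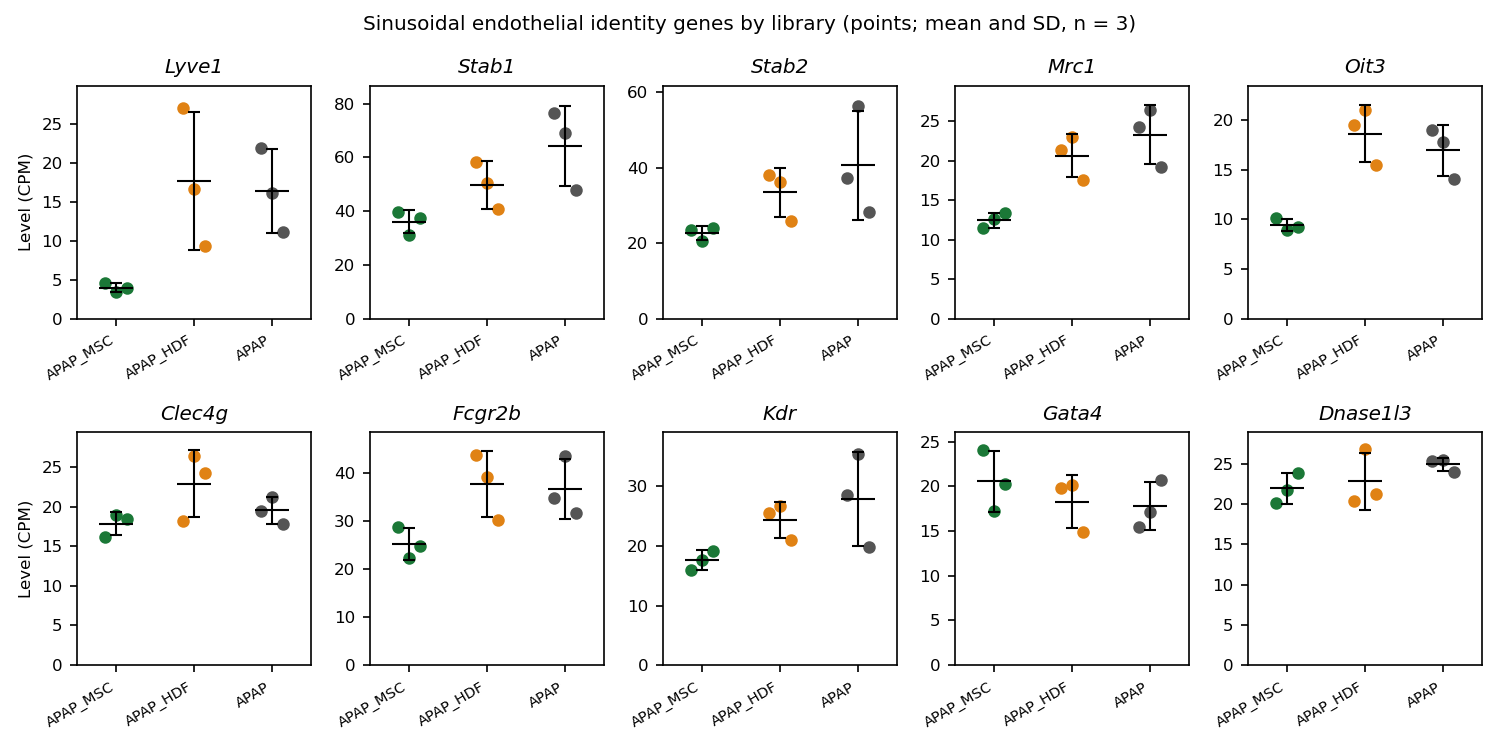
Level of each of the 10 genes in CPM (vertical axis, starting at 0) in the APAP_MSC, APAP_HDF and APAP groups (horizontal axis). Points are libraries and bars the mean and SD of 3; the 3 APAP_MSC points of Lyve1 lie between 3.40 and 4.54 CPM, below every other library, while those of Gata4 overlap with both other groups.

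RefSeq promoters of build GRCm38.p6, which span 250 bases before to 50 after a gene's start, were matched by symbol for 6 of the 10 genes: Stab1, Stab2, Mrc1, Clec4g, Fcgr2b and Kdr. They are shown because several of these genes lay lower together in APAP_MSC and because one of the 10, Gata4, encodes a factor that binds DNA. Whether these windows bear on the levels of the genes was not tested. Of the 4 printed, Stab1 and Mrc1 passed in APAP_MSC against APAP, Fcgr2b passed in APAP_MSC against APAP_HDF only, and Clec4g passed in neither. The windows are chr14:31168592-31168891 on the minus strand for Stab1, chr2:14229164-14229463 on the plus strand for Mrc1, chr1:170976022-170976321 on the minus strand for Fcgr2b and chr8:3720602-3720901 on the minus strand for Clec4g. Each is written 5′ to 3′ along its gene's strand. Capitals mark AGGAA or its reverse complement TTCCT, a core often bound by ETS factors, the family of the endothelial regulators Erg and Fli1; overlapping matches are joined.
Stab1: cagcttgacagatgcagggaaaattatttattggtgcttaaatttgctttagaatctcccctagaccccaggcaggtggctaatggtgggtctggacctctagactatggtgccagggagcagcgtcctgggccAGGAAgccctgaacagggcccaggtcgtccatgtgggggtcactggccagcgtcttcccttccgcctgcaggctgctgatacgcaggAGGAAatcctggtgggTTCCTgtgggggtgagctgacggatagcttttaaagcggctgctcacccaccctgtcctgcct
Mrc1: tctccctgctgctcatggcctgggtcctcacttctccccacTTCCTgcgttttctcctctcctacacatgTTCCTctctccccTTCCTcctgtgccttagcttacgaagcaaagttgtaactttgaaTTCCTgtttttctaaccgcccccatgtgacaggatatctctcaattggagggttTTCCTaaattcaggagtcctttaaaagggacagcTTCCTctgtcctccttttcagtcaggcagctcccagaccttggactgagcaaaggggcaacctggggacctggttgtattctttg
Fcgr2b: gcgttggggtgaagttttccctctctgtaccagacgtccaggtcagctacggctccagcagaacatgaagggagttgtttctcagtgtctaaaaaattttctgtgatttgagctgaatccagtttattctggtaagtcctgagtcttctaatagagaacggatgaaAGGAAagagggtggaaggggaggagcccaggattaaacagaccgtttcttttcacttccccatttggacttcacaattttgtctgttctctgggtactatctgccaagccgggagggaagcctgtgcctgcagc
Clec4g: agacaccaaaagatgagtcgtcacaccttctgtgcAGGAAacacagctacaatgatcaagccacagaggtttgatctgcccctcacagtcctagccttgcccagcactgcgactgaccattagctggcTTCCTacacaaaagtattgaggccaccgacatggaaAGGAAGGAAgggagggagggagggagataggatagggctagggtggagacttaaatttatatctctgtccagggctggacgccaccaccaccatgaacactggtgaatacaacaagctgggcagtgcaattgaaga
Searched on both strands, AGGAA was found in all 6 promoters, against 66.7% of 32851 RefSeq promoters of the same length. It occurred 3 times in Stab1, 3 times in Stab2, 6 times in Mrc1, 4 times in Clec4g, and 1 time each in Fcgr2b and Kdr. GATAA, one core of GATA sites, and its reverse complement TTATC were in 0 of the 6 windows, against 25.4% of the same promoters. Other forms of a GATA site were not searched, so the windows are not shown to lack such sites. AGATAG, for instance, stands in the Clec4g window and its reverse complement CTATCT in the Fcgr2b window. These matches describe letters in a short window and are not measured binding sites.

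The hyaluronan receptor Lyve1 had 4.54, 3.40 and 3.96 CPM in the APAP_MSC libraries, 27.0, 16.6 and 9.34 CPM in the APAP_HDF libraries, and 21.9, 16.2 and 11.2 CPM in the APAP libraries. All 3 APAP_MSC libraries lay below all 6 others, while the APAP_HDF and APAP libraries overlapped. The mean was 3.97 ± 0.570 CPM in APAP_MSC, 17.7 ± 8.87 CPM in APAP_HDF and 16.4 ± 5.39 CPM in APAP (SD, n = 3 each). Lyve1 was 75.8% lower in APAP_MSC than in APAP (log2 fold change -2.05 ± 0.39 SE, edgeR adjusted p = 0.0205) and 77.5% lower than in APAP_HDF (-2.16 ± 0.39, edgeR adjusted p = 0.0126). Against APAP, the call was lost when APAP library 1 or any 1 of the 3 APAP_MSC libraries was left out (log2 fold change -2.15 to -1.76, edgeR adjusted p 0.0613 to 0.102). Against APAP_HDF it was lost without APAP_MSC library 2 (-2.04, edgeR adjusted p = 0.0688). The libraries given HDF or no cells were also the more uneven for this gene: the highest was 2.89 times the lowest in APAP_HDF and 1.97 times in APAP, against 1.34 times in APAP_MSC.

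Stab1 and Stab2 encode the stabilins, scavenger receptors of the sinusoid; stabilin-2 is the main clearance receptor for circulating hyaluronan. Stab1 had 39.8, 31.2 and 37.2 CPM in APAP_MSC, 58.2, 50.3 and 40.6 CPM in APAP_HDF, and 76.4, 68.9 and 47.7 CPM in APAP. Stab2 had 23.5, 20.4 and 23.9 CPM in APAP_MSC, 38.0, 36.2 and 26.0 CPM in APAP_HDF, and 37.2, 56.3 and 28.2 CPM in APAP. For both genes the highest APAP_MSC library lay below the lowest library of each other group, and the lowest library of APAP_HDF and of APAP was library 3. Stab1 fell in APAP_MSC relative to APAP (-0.83 ± 0.18, edgeR adjusted p = 0.026). Stab2 had almost the same difference with a larger error (-0.84 ± 0.23, edgeR adjusted p = 0.0597) and did not pass. The 2 genes had parallel profiles over the 9 libraries, with a mean absolute difference of 0.136 in centred log2 CPM, but in APAP the coefficient of variation was 35.4% for Stab2 and 23.2% for Stab1. Relative to APAP_HDF, the log2 fold changes in APAP_MSC were -0.46 ± 0.18 for Stab1 (edgeR adjusted p = 0.137) and -0.56 ± 0.23 for Stab2 (edgeR adjusted p = 0.159). The call for Stab1 was lost without APAP library 1 or 2 or any 1 APAP_MSC library (-0.91 to -0.67, edgeR adjusted p 0.0639 to 0.137), and Stab2 passed without APAP library 3 (-1.05, edgeR adjusted p = 0.0201).

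Mrc1, the mannose receptor, had 11.5, 12.6 and 13.4 CPM in APAP_MSC, 21.4, 23.0 and 17.6 CPM in APAP_HDF, and 24.3, 26.5 and 19.2 CPM in APAP. The APAP_MSC libraries again lay below all others. Mrc1 fell in APAP_MSC by 46.4% relative to APAP (-0.90 ± 0.15, edgeR adjusted p = 0.00991) and by 39.7% relative to APAP_HDF (-0.73 ± 0.15, edgeR adjusted p = 0.0131). Without APAP_MSC library 2 neither call passed (edgeR adjusted p = 0.0632 against APAP and 0.0713 against APAP_HDF), and the call against APAP_HDF was also lost without APAP_MSC library 1 (edgeR adjusted p = 0.057).

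Fcgr2b encodes the inhibitory Fc gamma receptor, through which sinusoidal endothelium takes up small immune complexes. It had 28.9, 22.3 and 24.9 CPM in APAP_MSC, 43.7, 39.3 and 30.2 CPM in APAP_HDF, and 34.9, 43.6 and 31.6 CPM in APAP. The highest APAP_MSC library was only just below the lowest APAP_HDF library. Fcgr2b fell in APAP_MSC relative to APAP_HDF (-0.58 ± 0.16, edgeR adjusted p = 0.048) and did not pass relative to APAP (-0.53 ± 0.16, edgeR adjusted p = 0.072). The call against APAP_HDF was lost without APAP library 1, without APAP_HDF library 1 or 2, and without any 1 APAP_MSC library (-0.68 to -0.45, edgeR adjusted p 0.0613 to 0.213).

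Clec4g, the lectin LSECtin, had 16.2, 18.9 and 18.4 CPM in APAP_MSC, 18.1, 26.3 and 24.2 CPM in APAP_HDF, and 19.4, 21.3 and 17.8 CPM in APAP. Unlike the other receptors, its groups overlapped in every comparison. The log2 fold change in APAP_MSC was -0.13 relative to APAP (95% interval -0.44 to 0.18, edgeR adjusted p = 0.653) and -0.36 relative to APAP_HDF (-0.67 to -0.05, edgeR adjusted p = 0.139). Without APAP_HDF library 1, which was the lowest of its group, the difference from APAP_HDF passed (-0.49, edgeR adjusted p = 0.0422).

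Oit3 and Dnase1l3 encode secreted proteins. Oit3, a zona pellucida domain protein used as a sinusoidal marker in mouse, had 10.1, 8.95 and 9.18 CPM in APAP_MSC, 19.5, 21.0 and 15.5 CPM in APAP_HDF, and 19.0, 17.8 and 14.1 CPM in APAP. No APAP_MSC library reached the level of any other library, and the APAP_MSC libraries differed by a factor of 1.13 at most. Oit3 fell in APAP_MSC by 44.4% relative to APAP (-0.85 ± 0.15, edgeR adjusted p = 0.0142) and by 49.5% relative to APAP_HDF (-0.99 ± 0.15, edgeR adjusted p = 0.00424). The call against APAP_HDF held without each of the 9 libraries in turn (edgeR adjusted p 0.00219 to 0.0349). The call against APAP was lost without APAP_MSC library 2 (-0.80, edgeR adjusted p = 0.0816) or library 3 (-0.81, edgeR adjusted p = 0.0505).

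Dnase1l3 encodes a secreted DNase that digests chromatin in the circulation. It had 20.1, 21.8 and 23.9 CPM in APAP_MSC, 20.4, 26.9 and 21.3 CPM in APAP_HDF, and 25.4, 25.4 and 23.9 CPM in APAP. The APAP libraries were nearly level, and the highest APAP_MSC library lay just below the lowest APAP library. Its log2 fold change in APAP_MSC was -0.18 relative to APAP (95% interval -0.45 to 0.08, edgeR adjusted p = 0.412) and -0.06 relative to APAP_HDF (-0.33 to 0.21, edgeR adjusted p = 0.803).

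Kdr encodes the VEGF receptor VEGFR2. It had 15.9, 17.6 and 19.2 CPM in APAP_MSC, 25.5, 26.7 and 21.0 CPM in APAP_HDF, and 28.6, 35.5 and 19.8 CPM in APAP. The APAP_MSC libraries lay below the others, with APAP library 3 close above them. The difference did not pass relative to APAP (-0.67 ± 0.19, edgeR adjusted p = 0.057) or to APAP_HDF (-0.47 ± 0.19, edgeR adjusted p = 0.137). Without APAP library 3 both passed (-0.86 with edgeR adjusted p = 0.0145, and -0.46 with 0.0476).

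Gata4, the transcription factor, had 24.1, 17.2 and 20.3 CPM in APAP_MSC, 19.9, 20.2 and 14.9 CPM in APAP_HDF, and 15.5, 17.2 and 20.7 CPM in APAP. It was the only one of the 10 with its highest mean in APAP_MSC, and the 3 groups overlapped. The log2 fold change in APAP_MSC was 0.21 relative to APAP (95% interval -0.15 to 0.57, edgeR adjusted p = 0.506) and 0.17 relative to APAP_HDF (-0.19 to 0.53, edgeR adjusted p = 0.567).

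**Figure D2:**
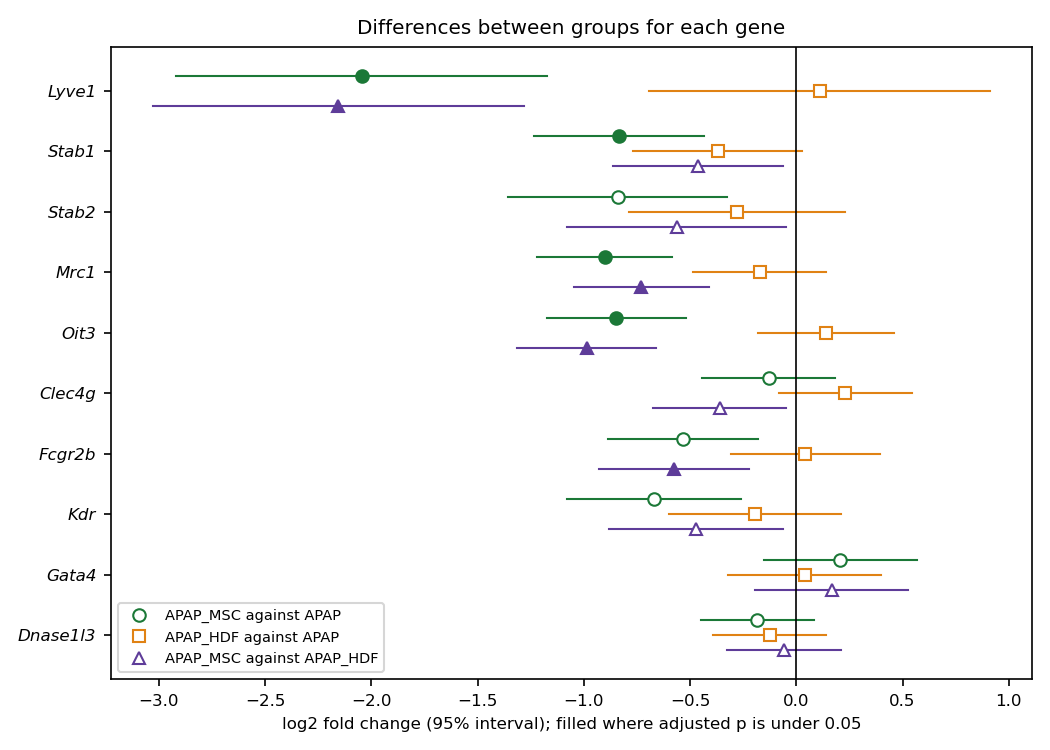
Log2 fold change of each gene (horizontal axis, with 95% interval) in APAP_MSC against APAP, APAP_HDF against APAP and APAP_MSC against APAP_HDF; filled symbols have an edgeR adjusted p under 0.05. Filled symbols occur for Lyve1, Stab1, Mrc1, Oit3 and Fcgr2b only, and every interval of APAP_HDF against APAP includes 0.

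As a group, relative to APAP, 9 of the 10 genes had a negative log2 fold change in APAP_MSC and the median was -0.75, against -0.0084 over all genes tested. In 8 of 10, all but Clec4g and Gata4, the APAP_MSC and APAP libraries did not overlap, against 14.7% of all genes for that direction. At an unadjusted p under 0.05, 7 of 10 were lower, against 12.7% of all genes. Relative to APAP_HDF, 9 of 10 were negative, the median was -0.52 against -0.0206 over all genes, 7 of 10 did not overlap against 16.4%, and 8 of 10 were lower at an unadjusted p under 0.05 against 13%. These 2 comparisons use the same APAP_MSC libraries, so they are given side by side and not as independent results. The number that passed rested on single libraries: without APAP_MSC library 2 it was 0 of 10 against APAP and 1 of 10 against APAP_HDF. Without APAP_MSC library 1 it was 2 in each, and without APAP_MSC library 3 it was 1 against APAP and 3 against APAP_HDF. Without APAP library 1 it was 2 against APAP, and without APAP library 3 it was 6. Fewer genes also passed over the whole table without APAP_MSC library 2, 97 in place of 1121 against APAP and 361 in place of 1563 against APAP_HDF. By DESeq2, 7 of 10 passed against APAP, with Stab2 (adjusted p = 0.00776), Kdr (0.0177) and Fcgr2b (0.0373) added to the 4 of edgeR. Over the whole table DESeq2 also called more genes in that comparison, 2050 in place of 1121, and 6.52% of the genes with an adjusted p were called lower. Relative to APAP_HDF, DESeq2 called the same 4 of 10 as edgeR, against 7.07% of genes called lower, while its calls over the whole table were 2531 in place of 1563.

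Between APAP_HDF and APAP livers, 5 of the 10 genes had a positive and 5 a negative log2 fold change, with a median of -0.04 against -0.00476 over all genes. None of the 10 passed by edgeR, by DESeq2 or by limma-voom, and 0 of 10 reached an unadjusted p under 0.05 in edgeR, against 8.78% of all genes. DESeq2 called 83 genes of the whole table in this comparison, 0.512% of those with an adjusted p, and limma-voom 0. The differences ran from -0.37 for Stab1 to 0.23 for Clec4g. The intervals were wide enough to leave sizeable changes undetected: -0.69 to 0.91 for Lyve1, -0.77 to 0.03 for Stab1, -0.79 to 0.23 for Stab2 and -0.60 to 0.21 for Kdr. They were narrower for Mrc1 (-0.48 to 0.14), Oit3 (-0.18 to 0.46), Clec4g (-0.08 to 0.54), Fcgr2b (-0.31 to 0.39), Gata4 (-0.32 to 0.40) and Dnase1l3 (-0.39 to 0.14). This comparison and that of APAP_MSC with APAP share the APAP libraries. The number of genes whose APAP_HDF and APAP libraries lay apart without overlap was 0 of 10, against 6.08% of all genes lower and 5.66% higher.

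By group mean, the order from high to low was APAP, APAP_HDF, APAP_MSC for Stab1, Stab2, Mrc1, Kdr and Dnase1l3. It was APAP_HDF, APAP, APAP_MSC for Lyve1, Oit3, Clec4g and Fcgr2b, and APAP_MSC, APAP_HDF, APAP for Gata4. The upper pair of neighbours, APAP_HDF and APAP, overlapped in all 9 of the genes ordered with APAP_MSC last. The lower neighbour, APAP_MSC, was separated from both by its library values in 7 of the 9, the exceptions being Clec4g and Dnase1l3. The 9 were taken for having their lowest mean in APAP_MSC, which favours such separation. Of all genes, 14.7% lay apart below APAP and 16.4% below APAP_HDF, and the share below both was not counted.

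Most of the 10 genes were low in the same libraries. APAP library 3 was the lowest of its group for 9 of the 10, APAP_HDF library 3 for 8 and APAP_MSC library 2 for 6. Summed over the 10 genes, the level was 195, 174 and 194 CPM in the APAP_MSC libraries, 292, 287 and 221 CPM in the APAP_HDF libraries, and 303, 329 and 234 CPM in the APAP libraries. So even the lowest library of either other group stood above the highest APAP_MSC library. Within that sum, Lyve1 held 2.11 ± 0.201% in APAP_MSC, 6.43 ± 2.57% in APAP_HDF and 5.64 ± 1.39% in APAP. Gata4, Dnase1l3 and Clec4g held larger shares in APAP_MSC than in APAP, as a gene with little change must when the rest of a sum is lower. Stab2 and Kdr, which like them passed in none of the comparisons, held smaller mean shares in APAP_MSC than in APAP. These were 12.0% against 13.8% for Stab2 and 9.39% against 9.57% for Kdr. Gata4 held 10.9 ± 1.31% in APAP_MSC, 6.87 ± 0.165% in APAP_HDF and 6.40 ± 2.12% in APAP. Dnase1l3 held 11.7 ± 1.18% in APAP_MSC, 8.67 ± 1.46% in APAP_HDF and 8.78 ± 1.29% in APAP. Clec4g held 9.54 ± 1.27% in APAP_MSC, 8.79 ± 2.40% in APAP_HDF and 6.83 ± 0.675% in APAP (SD, n = 3 each).

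Per kilobase of exon, by the GENCODE M21 models of GRCm38, a different build from the one the submitters name, Clec4g had the highest mean level of the 10 in each group, at 7.24 CPM per kb in APAP_MSC, 9.29 in APAP_HDF and 7.92 in APAP. Lyve1 stood at 1.36 CPM per kb in APAP_MSC, the lowest of the 10 there, and at 6.05 in APAP_HDF and 5.62 in APAP. In APAP livers the lowest was Kdr at 3.10 CPM per kb. Reads of overlapping genes could touch 4 of the 10, since strand use in counting is not stated: other genes overlapped 5.93% of the exon length of Clec4g, 2.68% of Fcgr2b, 1.61% of Stab2 and 1.09% of Stab1.

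The profiles over the 9 libraries were compared by the mean absolute difference of centred log2 CPM, each gene set against the mean of the other 9. Fcgr2b (0.0839), Mrc1 (0.103) and Stab2 (0.117) lay closest to the rest of the 10. Clec4g (0.307), Gata4 (0.441) and Lyve1 (0.685) lay farthest. The closest pair was Stab2 and Kdr (0.122) and the farthest Lyve1 and Gata4 (0.976). Among genes outside the 10 with a mean of at least 5 CPM, the profiles most like their mean were Flt4 (0.0403), which encodes VEGFR3, the TGF-beta co-receptor gene Eng (0.0661), the junction gene Esam (0.0739), Arhgap23 (0.0749) and Sh3tc1 (0.0803). These distances are descriptions over 9 libraries that share their depth and composition.

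**Figure D3:**
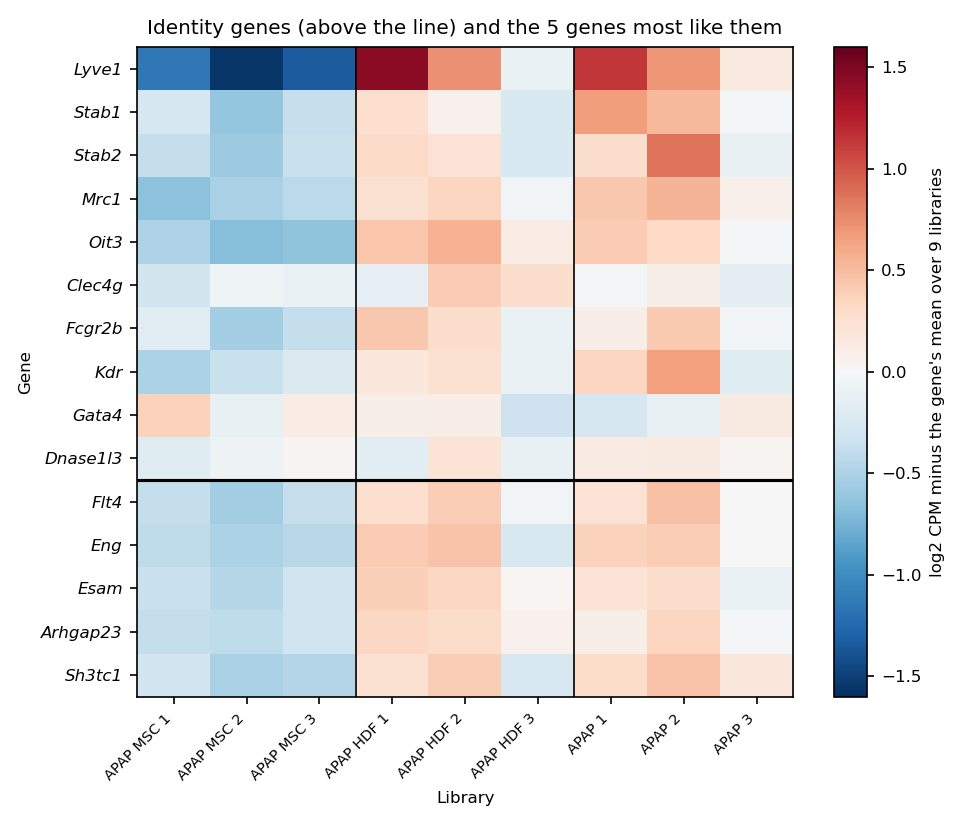
Log2 CPM minus the gene's mean over 9 libraries (colour, blue below and red above 0) for the 10 genes and, below the black line, the 5 most similar others; columns are libraries in the order APAP_MSC, APAP_HDF, APAP. The APAP_MSC columns are blue for most genes, Clec4g, Gata4 and Dnase1l3 stay pale, and for most genes the third library of APAP_HDF and of APAP is paler than the other 2.

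Of 24 other sinusoidal endothelial genes, 8 fell and 0 rose in APAP_MSC relative to APAP (median -0.79), 0 passed in APAP_HDF relative to APAP (median -0.18, 3 lower at an unadjusted p under 0.05), and 6 fell and 0 rose in APAP_MSC relative to APAP_HDF (median -0.46). At an unadjusted p under 0.05, 20 were lower in APAP_MSC relative to APAP and 12 relative to APAP_HDF, against 12.7% and 13% of all genes. Libraries lay apart below for 18 and 13, against 14.7% and 16.4%. Summed over the 24, the level was 883 to 1016 CPM in APAP_MSC, 1031 to 1262 CPM in APAP_HDF and 901 to 1244 CPM in APAP. By that sum, APAP_MSC and APAP overlapped, unlike for the 10 genes. Flt4 averaged 14.3 ± 1.04 CPM in APAP_MSC, 22.5 ± 3.34 CPM in APAP_HDF and 22.8 ± 3.69 CPM in APAP (-0.68 ± 0.15 in APAP_MSC relative to APAP, edgeR adjusted p = 0.0238). Bmp2, a ligand by which sinusoidal endothelium induces hepcidin in hepatocytes, averaged 5.43 ± 1.34 CPM in APAP_MSC, 10.8 ± 0.710 CPM in APAP_HDF and 10.4 ± 2.17 CPM in APAP (-0.93 ± 0.20 against APAP, edgeR adjusted p = 0.0238). The fatty acid transporter Cd36 (-0.65 ± 0.14, edgeR adjusted p = 0.0224), Cyp4b1 (-1.09 ± 0.26, 0.036) and the adhesion receptor Adgrl4 (-1.06 ± 0.26, 0.0345) were also among the 8. Wnt9b, an endothelial Wnt ligand that was singled out after its values were seen, had 0, 6 and 2 raw counts in the APAP_MSC libraries, 40, 16 and 20 in the APAP_HDF libraries, and 44, 30 and 30 in the APAP libraries (-3.55 ± 0.70 against APAP, edgeR adjusted p = 0.0165). The 8 calls rested on single libraries: the number that fell relative to APAP was 0 without APAP_MSC library 1, 1 without APAP_MSC library 2 or APAP library 1, 2 without APAP_MSC library 3 or APAP library 2, and 13 without APAP library 3. It was 5 without APAP_HDF library 2. Relative to APAP_HDF, 0 fell without APAP_MSC library 1 or 2, 2 without APAP_HDF library 1, and 3 without APAP_HDF library 2.

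Genes of endothelium in general were mostly lower in APAP_MSC, and few passed. Of 24 such genes, 22 had a negative log2 fold change relative to APAP, 10 were lower and 1 higher at an unadjusted p under 0.05, and the libraries of both groups lay apart for 10 that were lower and 1 that was higher. Over all genes, 12.7% were lower at that p and 14.7% were lower with libraries apart. By edgeR's adjusted p, 2 fell and 1 rose in APAP_MSC relative to APAP (median -0.49), 0 passed in APAP_HDF relative to APAP (median -0.15, 1 lower at an unadjusted p under 0.05), and 4 fell (Eng, Esam, Robo4 and Clec14a, the last named after its values were seen) and 1 rose (S1pr1) in APAP_MSC relative to APAP_HDF (median -0.27). Tek, the angiopoietin receptor, fell relative to APAP (-0.94 ± 0.20, edgeR adjusted p = 0.0214), as did Eng (-0.71 ± 0.17, 0.0385). The sphingosine-1-phosphate receptor gene S1pr1 rose, averaging 88.3 ± 5.09 CPM in APAP_MSC, 58.7 ± 4.21 CPM in APAP_HDF and 55.2 ± 7.11 CPM in APAP (0.68 ± 0.11 against APAP, edgeR adjusted p = 0.0101). The vascular markers Pecam1 (-0.79 ± 0.22, edgeR adjusted p = 0.0546), Cdh5 (-0.99 ± 0.30, 0.0828) and Emcn (-0.82 ± 0.28, 0.106) did not pass. Summed over the 24, the level was 247 to 274 CPM in APAP_MSC, 244 to 346 CPM in APAP_HDF and 266 to 368 CPM in APAP, with no marker at 0 in any library. Both falls relative to APAP were lost without APAP library 1 or 2 or any 1 APAP_MSC library (edgeR adjusted p up to 0.119 for Tek and 0.164 for Eng), and 7 of the 24 fell without APAP library 3. The rise of S1pr1 relative to APAP was lost without APAP_MSC library 2 (edgeR adjusted p = 0.0538). All 4 falls relative to APAP_HDF were lost without any 1 APAP_MSC library or without APAP_HDF library 2.

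Each of the 10 genes was also set against the mean centred log2 level of those 24 in the same library, as a description without a test. On that scale, Lyve1 differed by -1.58 between APAP_MSC and APAP, Mrc1 by -0.48, Oit3 by -0.42, Stab1 by -0.40 and Stab2 by -0.37. Kdr (-0.22) and Fcgr2b (-0.12) differed less, and Dnase1l3 (0.23), Clec4g (0.28) and Gata4 (0.62) were higher. In Lyve1, Stab2, Mrc1 and Oit3 the range of the 3 APAP_MSC libraries stayed below that of both other groups, while for Stab1 it stayed below that of APAP only.

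**Figure D4:**
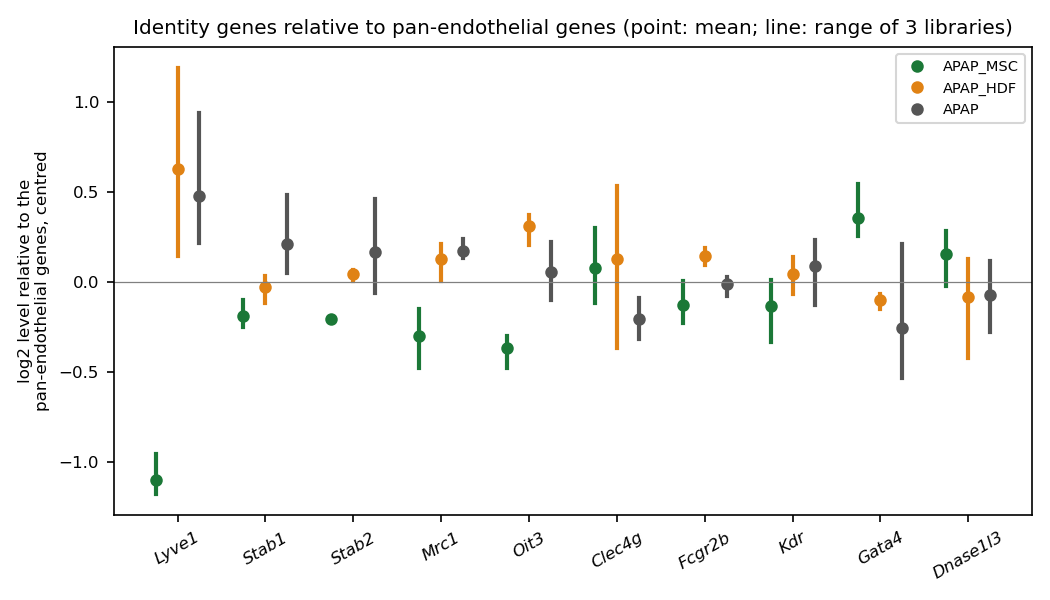
Log2 level of each gene minus the mean log2 level of 24 pan-endothelial genes in the same library, centred per gene (vertical axis), for APAP_MSC, APAP_HDF and APAP; points are means and lines the range of 3 libraries. The APAP_MSC range lies below both others for Lyve1, Stab2, Mrc1 and Oit3, with Lyve1 at -1.18 to -0.96, and above both for Gata4.

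Several markers of monocytes and infiltrating macrophages fell in APAP_MSC relative to APAP too, while few of Kupffer cells did. Of 15 monocyte and infiltrating macrophage markers, 8 fell and 0 rose relative to APAP (median -1.17), 0 passed in APAP_HDF relative to APAP (median -0.64, 7 lower at an unadjusted p under 0.05), and 3 fell (Chil3, Cd68 and Cd14) and 1 rose (Spp1, named after its values were seen) in APAP_MSC relative to APAP_HDF (median -0.63). Over all genes, 3.54% fell in APAP_MSC relative to APAP, and 3.99% fell and 4.9% rose relative to APAP_HDF. At an unadjusted p under 0.05, 8.78% of all genes differed between APAP_HDF and APAP, in either direction. The summed level of the 15 markers was 152 to 174 CPM in APAP_MSC, 152 to 206 CPM in APAP_HDF and 195 to 282 CPM in APAP, and none was at 0 in any library. Cd68, a lysosomal protein of macrophages, averaged 16.3 ± 3.37 CPM in APAP_MSC, 40.3 ± 4.99 CPM in APAP_HDF and 38.8 ± 5.42 CPM in APAP (-1.25 ± 0.16 against APAP, edgeR adjusted p = 0.00415), and it passed without each of the 9 libraries in turn. Leaving out 1 APAP_MSC library left 2 or 3 of the 15 that fell relative to APAP, leaving out APAP library 1 or 3 left 4, and leaving out APAP_HDF library 2 left 5. The rise of Spp1 was lost without any 1 APAP_MSC or APAP_HDF library. Of 15 markers of Kupffer cells, the resident macrophages, 1 fell in APAP_MSC relative to APAP, the scavenger receptor Cd163 (-1.30 ± 0.30, edgeR adjusted p = 0.0337), and the median was -0.58. That call was lost without APAP library 2 or 3 or any 1 APAP_MSC library (edgeR adjusted p up to 0.143). The Kupffer cell median in APAP_HDF relative to APAP was -0.71, with 0 passing and 9 lower at an unadjusted p under 0.05. In APAP_MSC relative to APAP, 3 Kupffer markers were lower at that p, against 12.7% of all genes. In APAP_MSC relative to APAP_HDF the Kupffer cell median was 0.13, with 10 of 15 positive, 0 passing and 0 at an unadjusted p under 0.05. The Kupffer markers summed to 332 to 427 CPM in APAP_MSC, 287 to 428 CPM in APAP_HDF and 352 to 618 CPM in APAP, with none at 0. APAP library 3 had the highest summed level of its group for both macrophage lists, 282 and 618 CPM, and the lowest for the 10 genes, 234 CPM. Clec4f, the defining Kupffer lectin, averaged 19.7 ± 6.60 CPM in APAP_MSC, 16.8 ± 4.71 CPM in APAP_HDF and 28.4 ± 10.8 CPM in APAP (-0.53 ± 0.32 against APAP, edgeR adjusted p = 0.37). The part of macrophage RNA in the differences of Mrc1, Fcgr2b, Lyve1 and Dnase1l3 was not tested.

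**Figure D5:**
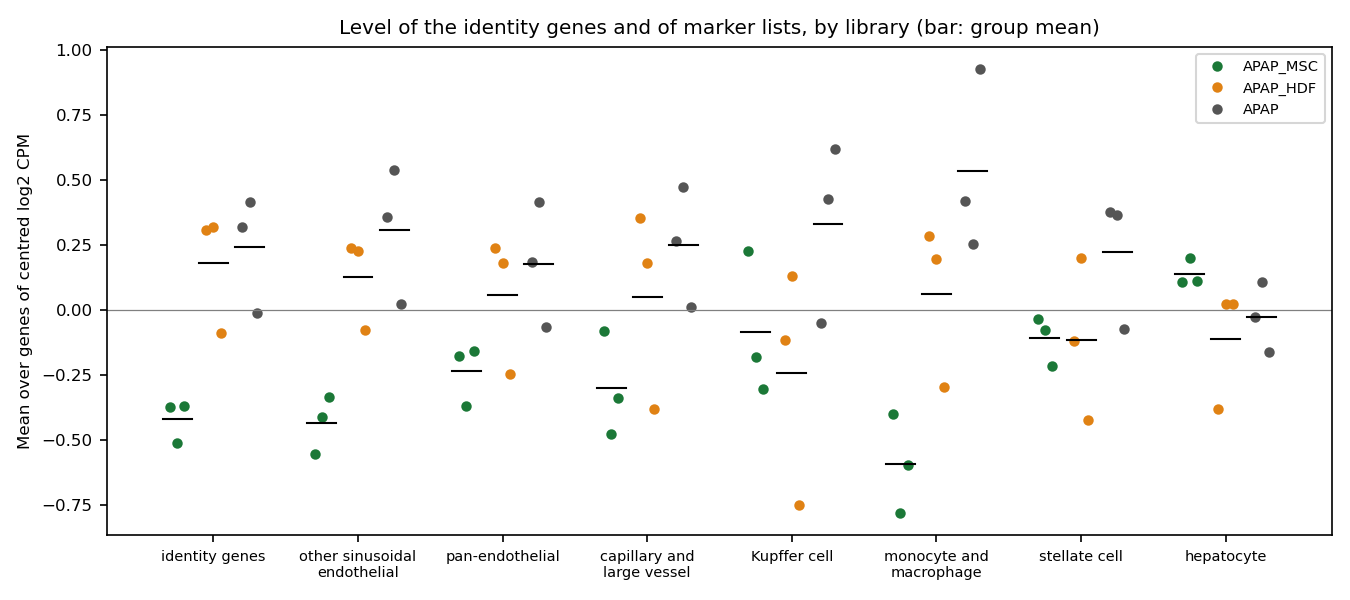
Mean over genes of centred log2 CPM (vertical axis) per library for the 10 genes and 7 lists of marker genes, in APAP_MSC, APAP_HDF and APAP; bars are group means. For the 10 genes the APAP_MSC libraries lie between -0.51 and -0.37, below the APAP_HDF range of -0.09 to 0.32 and the APAP range of -0.01 to 0.41, and the monocyte and macrophage list has its lowest 3 libraries in APAP_MSC too.

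Relatives of the 10 genes by function were counted as well, with the 10 themselves left out. Of 15 other scavenger and endocytic receptors, 3 fell and 1 rose in APAP_MSC relative to APAP, with a median of -0.02. Besides Cd36 and Cd163, the macrophage scavenger receptor Msr1 fell (-0.81 ± 0.17, edgeR adjusted p = 0.0218), and Asgr2, a subunit of the hepatocyte asialoglycoprotein receptor, rose (0.64 ± 0.12, 0.0175). Of 5 other genes listed with the Fc gamma receptors, among them the Fc receptor signalling chain Fcer1g, 2 fell relative to APAP. They were the activating receptors Fcgr1 (-1.61 ± 0.39, edgeR adjusted p = 0.0366) and Fcgr3 (-1.24 ± 0.33, 0.0499). The median of the 5 was -1.24, with 4 lower and 1 higher (0.47) at an unadjusted p under 0.05, against 12.7% of all genes lower. Summed over the 5, the level averaged 103 CPM in APAP_MSC, 97.1 CPM in APAP_HDF and 88.7 CPM in APAP. In APAP_HDF relative to APAP the median of these 5 was -0.84, with 0 passing and 3 lower at an unadjusted p under 0.05. In APAP_MSC relative to APAP_HDF it was -0.40, with 0 passing and 0 at an unadjusted p under 0.05. Without APAP_MSC library 2, 0 of these 15 scavenger receptor genes and 5 genes of the Fc gamma receptor list passed relative to APAP. Both Fc gamma receptor calls were also lost without APAP_MSC library 1 or 3, APAP library 1 or 3, or APAP_HDF library 2, and Msr1 without APAP library 1 or 2 or APAP_MSC library 3. Of 9 other VEGF ligand and receptor genes, 1 fell (Flt4) and 0 rose in APAP_MSC relative to APAP. Relative to APAP_HDF, 2 fell, Flt4 among them, and 0 rose. In both comparisons 2 were lower and 1 higher at an unadjusted p under 0.05. The falls relative to APAP_HDF were lost without any 1 APAP_MSC library and without APAP_HDF library 1 or 2. Among 5 other GATA family and cofactor genes 0 passed in any of the 3 comparisons, and likewise among 5 other DNase genes, by edgeR. At an unadjusted p under 0.05, the GATA and DNase lists each had 0 or 1 gene in either direction in each comparison. Gata6 averaged 11.7 ± 1.20 CPM in APAP_MSC, 15.5 ± 2.0 CPM in APAP_HDF and 12.9 ± 0.846 CPM in APAP (-0.14 ± 0.13 against APAP, edgeR adjusted p = 0.575). The 10 genes and these lists overlap in what they mark, and they were chosen with earlier results of these data known.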

How the data were processed

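Poly(A) RNA of mouse liver was measured in 9 libraries. Per the labels' protocols, RNA came from a piece of whole liver (TRIZOL), and libraries were made with a Tecan universal plus kit. The deposited counts used here are whole reads per gene symbol. The submitters' processing notes name the tools HISAT2, Subread and DESeq2 and the builds mm39 and GRCm39, with no version; strand use is not given in the sources used here. The authors' normalized table was not used. Column headers carry only the group, so libraries are numbered by their order within it, as names. Pairs of libraries within a group gave median per-gene chi-square values of 3.18 to 9.11, more than sampling noise, so none was merged.

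The fit used edgeR 4.0.16 (R 4.3.3): filterByExpr by group, TMM factors (0.934 to 1.11), and a robust quasi-likelihood fit on all 9 libraries with the group as its term (biological coefficient of variation 0.197). P-values are two-sided and Benjamini-Hochberg adjusted over all 17582 genes, with calls at 0.05. Levels are CPM as mean and SD; log2 profiles use a prior count of 2. With 3 libraries against 3, an exact permutation test of a single gene cannot go below 0.1, so none was used. Alternatives were median-of-ratios factors, no filter, DESeq2 1.42.0, limma-voom 3.58.1, only the groups compared, each library left out, and an older form of the quasi-likelihood fit, which was chosen after seeing the data. The steps were tested on simulated data.

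The 10 genes and the marker lists (175 genes) were chosen with earlier results of these data known. Named besides the 10 are up to 4 genes per list with the smallest p across the 3 groups and a mean of at least 1 CPM, Pecam1, Cdh5, Emcn, Clec4f, Cd68 and Alb, and the 5 genes with the most similar profile. No protein sequence was used here.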

Additional observations from a re-analysis of the deposited data

How the results depend on the processing

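The direction of the 10 genes in APAP_MSC relative to APAP held under every alternative run. In the other comparisons 10 values with small differences changed sign, each on leaving out 1 library. In APAP_HDF relative to APAP, Gata4 was -0.046 without APAP library 1, -0.026 without APAP_HDF library 1 and -0.036 without APAP_HDF library 2 (range with each library left out -0.046 to 0.17). Stab2 was 0.026 (range -0.50 to 0.026) and Kdr 0.0091 (range -0.40 to 0.0091) without APAP library 2. Without APAP library 3, Lyve1 was -0.12 and Fcgr2b -0.066, and without APAP_HDF library 1 they were -0.34 (range -0.34 to 0.41) and -0.081 (range -0.081 to 0.18). In APAP_MSC relative to APAP_HDF, Dnase1l3 was 0.075 without APAP_HDF library 2 (range -0.12 to 0.075). The cause was not tested.

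Of the 10 genes, leaving out 1 library at a time gave 0 to 6 calls in APAP_MSC relative to APAP, 1 to 5 in APAP_MSC relative to APAP_HDF, 0 to 0 in APAP_HDF relative to APAP, and 0 to 6 in the test across the 3 groups. Over all genes the ranges were 97 to 1753, 361 to 1793, 0 to 32 and 141 to 1597, in the same order. Counts went down without some libraries and up without others, and the cause was not tested. DESeq2 called 7 of the 10 in APAP_MSC relative to APAP and 7 across the 3 groups; over all genes it called 2050, 2531, 83 and 2738, in the order of the ranges above, against 1121, 1563, 0 and 1230 by edgeR. Without the filter, 2 of the 10 passed across the 3 groups. In APAP_MSC relative to APAP, Lyve1 missed the threshold without the filter (edgeR adjusted p = 0.0656). By limma-voom, Lyve1 passed only just under the threshold (adjusted p 0.05 after rounding). In APAP_MSC relative to APAP_HDF, Fcgr2b missed it by limma-voom (adjusted p = 0.0562), and Stab2 and Kdr passed when only those groups were fitted (edgeR adjusted p = 0.0423 and 0.0429). No paired analysis was possible because the columns carry no replicate numbers.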

Other observations

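Genes of larger vessels and of other liver cell types were counted in the same way. Of 20 tested capillary and large vessel endothelial genes, 2 fell in APAP_MSC relative to APAP, with a median of -0.46. Nid1, a basement membrane protein that other liver cells also make, averaged 79.3 ± 9.66 CPM in APAP_MSC, 216 ± 91.0 CPM in APAP_HDF and 278 ± 66.2 CPM in APAP (SD, n = 3 each; -1.81 ± 0.28 against APAP, edgeR adjusted p = 0.0128). Thbd, which encodes the thrombin-binding protein thrombomodulin, averaged 2.83 ± 0.096 CPM in APAP_MSC, 7.78 ± 4.76 CPM in APAP_HDF and 12.9 ± 5.30 CPM in APAP (-2.18 ± 0.46, edgeR adjusted p = 0.0291). Of 7 lymphatic endothelial genes, 1 fell relative to APAP, the transcription factor Prox1 (-0.54 ± 0.12, edgeR adjusted p = 0.0276), which hepatocytes also make. Of 13 hepatic stellate cell genes, 2 fell relative to APAP (median -0.34): the proteoglycan gene Dcn (-0.67 ± 0.14, edgeR adjusted p = 0.021) and the growth factor receptor gene Pdgfra (-0.98 ± 0.23, 0.0309). Of 14 hepatocyte genes, 0 fell and 1 rose, Ttc36 (0.70 ± 0.18, edgeR adjusted p = 0.0488). At an unadjusted p under 0.05, 5 of the 14 were higher and 1 lower in APAP_MSC relative to APAP, and 6 were higher without overlap. Over all genes, 12.7% were lower at that p, and 3.54% fell and 2.83% rose by edgeR's adjusted p. The shares of all genes that were higher at that unadjusted p or without overlap are not given here, so these hepatocyte counts have no background. In APAP_HDF relative to APAP, 0 genes of any of these 4 lists passed by edgeR, with medians of -0.37 for the stellate cell genes and -0.32 for the capillary and large vessel genes. In APAP_MSC relative to APAP_HDF, those medians were 0.01 and -0.31. In APAP_HDF relative to APAP, 1 capillary and large vessel gene was higher and 2 lower at an unadjusted p under 0.05. By that measure 1 lymphatic gene was higher, 2 stellate cell genes were lower and 1 hepatocyte gene was lower. Over the whole table, 8.78% of genes passed that measure in either direction. In APAP_MSC relative to APAP_HDF it gave 1 higher and 5 lower for capillary and large vessel genes, and 2 lower for lymphatic genes. For stellate cell genes it gave 2 higher and 2 lower, and for hepatocyte genes 5 higher. In this comparison 13% of all genes were lower at that p, and the share that was higher is not given here. There Nid1 fell (-1.45 ± 0.28, edgeR adjusted p = 0.0153) and the hepatocyte gene Cps1 rose (0.73 ± 0.16, 0.0213), each lost without any 1 APAP_MSC library. Relative to APAP, the falls of Thbd, Prox1, Dcn and Pdgfra were each lost without APAP library 1 or 2 or any 1 APAP_MSC library (edgeR adjusted p up to 0.155). In that comparison the fall of Nid1 was lost only without APAP_MSC library 2 (0.0556), and the rise of Ttc36 without any 1 APAP or APAP_MSC library or APAP_HDF library 3 (up to 0.171).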
